A study of Homo sapiens with 9 samples.

Results

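The 47 genes described here encode proteins that license, start and carry out DNA replication, supply its nucleotides or drive entry into S phase. They were chosen by gene symbol, with earlier results of these data known. Each symbol was matched to its Ensembl gene ID among the 33264 genes of the deposited table. All 47 were in the table and passed the minimum level for testing. RNA of U87MG, a long-established line of human glioblastoma cells, was measured in 9 libraries that fall into 3 groups of 3. In the first group (R50_OFF), cells of a resistant line had been freed of temozolomide after 2 months of exposure to 50 µM. The second (R50) was a resistant line grown without interruption in 50 µM temozolomide. The third (parent) was the U87MG line that both resistant lines came from, labelled as the control. Temozolomide is an alkylating drug that methylates DNA bases and is used against glioblastoma. Both resistant lines are clonal, 1 clone each, so an effect of the drug or of its withdrawal cannot be told apart from a difference between clones. The labels do not say whether replicates were cultured separately, so each p-value below reflects the variation among these samples alone, and that variation may be technical.

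In a dividing cell, origins of replication are licensed when the origin recognition complex, with CDC6 and CDT1, loads the ring-shaped MCM2-7 helicase onto DNA. CDC45 and the GINS complex then join the helicase and switch it on, polymerase alpha with primase lays down primers, and polymerases delta and epsilon extend them while held on DNA by the PCNA clamp, which the RFC complex loads. Many of these genes are transcribed around the transition into S phase under E2F factors, and cyclin E with its kinase promotes that transition.

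Reads traced back from the deposited values summed to 28.7 M to 35.8 M per library. They are the smallest whole numbers that fit, known for each gene only up to a whole factor. The fewest traced reads of any of the 47 genes in a library were 225, for CCNE1. The median over the 47 genes of their lowest count was 1530. By signal per kilobase, E2F8 was the lowest of the 47 in each group. Levels are given as the deposited normalized signal per kilobase, divided by each gene's median transcript length. Rankings and ratios between genes rest on that length and on an unknown way of counting, so they describe the signal only. All 8 markers of U87MG and mesenchymal glioma were measured, and their summed signal was 466218 to 506552 in R50_OFF, 425598 to 463508 in R50 and 585355 to 593845 in parent. VIM made the largest part of that sum, and single markers differed from it in pattern. CHI3L1, a secreted glycoprotein, averaged 665 ± 36.1 in R50_OFF, 14817 ± 549 in R50 and 5060.1 ± 76.9 in parent (SD, n = 3 each, as in all values with ± below), and was higher in R50 and lower in R50_OFF than in parent, with log2 changes of -2.93 in R50_OFF and 1.55 in R50. FN1, which encodes fibronectin, averaged 6074 ± 276 in R50_OFF, 12546 ± 598 in R50 and 43670.1 ± 2633 in parent, lower than parent in both lines, at an adjusted p by limma of 2.2e-10 in R50_OFF and 9.95e-10 in R50. TIMP1 was the only one of the 8 to pass as higher in R50_OFF than in parent. It averaged 37195 ± 614 in R50_OFF, 23714 ± 2323 in R50 and 25825 ± 1296 in parent. Its log2 change was 0.53 (SE 0.07, adjusted p = 8.29e-05 by limma) in R50_OFF against parent. NES, a neural progenitor filament, was low, at 20.7 ± 1.68 in R50_OFF, 63.6 ± 2.63 in R50 and 65.2 ± 4.94 in parent. Glial markers summed to 66.6 to 86.4 in R50_OFF, 22.8 to 24.3 in R50 and 18.8 to 28.2 in parent. Most of it was OLIG2, a transcription factor of oligodendrocyte lineage cells, which averaged 75.4 ± 11.9 in R50_OFF, 16.7 ± 1.30 in R50 and 20.3 ± 3.66 in parent and was higher in R50_OFF, with a log2 change of 1.84 (SE 0.20, adjusted p = 2.42e-05) against parent and 2.10 (SE 0.20, adjusted p = 7.04e-06) against R50. GFAP stayed at or below 8.18 in every library, S100B was at 0 or near it, and AQP4 was not analysed here. Immune markers summed to 31.1 to 44.3 in R50_OFF, 28.7 to 46.3 in R50 and 40.5 to 50.3 in parent, with PTPRC and CD3E at or near 0. Endothelial markers summed to 137.6 to 156 in R50_OFF, 251 to 300.3 in R50 and 340.4 to 376 in parent, most of it PECAM1, and epithelial markers summed to 24.5 to 35.9 in R50_OFF, 27.6 to 33.1 in R50 and 26.7 to 39.6 in parent. Within that epithelial sum EPCAM was lower in R50, at 29.1 ± 5.97 in R50_OFF, 10.2 ± 4.06 in R50 and 33.4 ± 6.26 in parent, with a log2 change of -1.68 (SE 0.31, adjusted p = 0.000657) in R50 against parent. KRT5 and CDH5, by contrast, were near 0 in R50_OFF and parent and reached 20.9 and 27.9 in an R50 library. The part of these markers in the results below was not tested.

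In R50, 39 of the 47 replication genes had fallen relative to parent and 1, GMNN, had risen, by limma with Benjamini-Hochberg adjustment over all 16456 genes tested and a threshold of 0.05. Over all genes tested, 31.7% were lower and 31.6% were higher in the same comparison. The median log2 change of the 47 was -0.57, beside 0.02 for all genes tested, and it ran from -1.73 for MCM6 to 0.15 for GMNN. The libraries of R50 lay below those of parent without overlap in 39 of the genes and above them in 2, against 33.6% and 34.7% of all genes tested. A fall of at least 2-fold was reached by 8 of the genes, against 9.05% of all genes tested: MCM6, MCM3, ORC1, GINS4, GINS2, RRM2, E2F1 and E2F2. In bulk RNA, fewer cells in S phase and less transcript per cell cannot be told apart.

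In R50_OFF against R50, 41 of the 47 were higher and 1, again GMNN, was lower, while 30.2% of all genes tested were higher and 29.3% were lower. The median log2 change was 0.56, beside -0.00 over all genes tested. The libraries of R50_OFF lay above those of R50 without overlap in 40 of the genes, against 31.8% of all genes tested, and below them in 1, against 31.5%. A rise of at least 2-fold was reached by 9 genes, against 7.55% of all genes tested. In R50_OFF against parent the genes divided, with 14 higher, 12 lower and 21 that did not pass, close to the 26.3% higher and 25.7% lower of all genes tested. The median there was 0.04, beside 0.00 for all genes, and libraries lay apart in 18 genes upward and 14 downward, against 31.6% and 31.1%. The 3 comparisons share their libraries in pairs, so their values are set side by side and not counted as separate evidence.

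All 3 R50 libraries lay below the other 6 libraries in 38 of the 47 genes, a pattern found in 21.4% of all genes tested, and above them in 1 gene, a pattern found in 22.1%. By group means, 26 genes had the order R50_OFF, parent, R50 from high to low, 18 had parent, R50_OFF, R50, 2 had R50_OFF, R50, parent and 1 had R50, parent, R50_OFF. Together the 47 genes took up 0.698% to 0.708% of the summed signal in R50_OFF libraries, 0.466% to 0.497% in R50 libraries and 0.662% to 0.670% in parent libraries. Among the R50 libraries, replicate 2 was the highest of the 3 in 28 genes and replicate 3 the lowest in 31. The coefficient of variation between replicates had a median over the 47 genes of 4.10% in R50_OFF, 6.37% in R50 and 2.44% in parent. Without R50 replicate 2 the count of falls in R50 against parent was 42, beside 5326 of all 16456 genes tested. Without R50 replicate 3 it was 35, beside 5049.

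**Figure D1:**
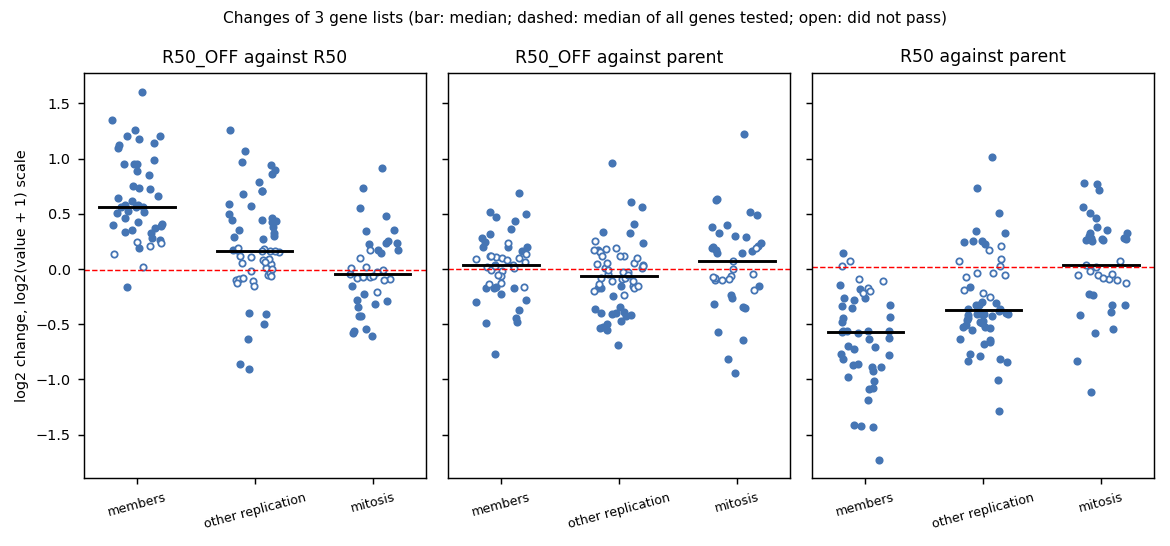
Log2 change, on the log2(value + 1) scale, of each gene (points, open where the gene did not pass) of the 47 replication genes, 58 other replication genes and 39 mitosis genes in R50_OFF against R50, R50_OFF against parent and R50 against parent, with the list median as a bar and the median of all genes tested as a dashed line. The median of the 47 genes lies at 0.56, 0.04 and -0.57 in the 3 panels.

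The deposited values match a scaling by median ratios between libraries and not one to a fixed total. Scaled to a fixed total, a setting chosen after the values were seen, the median of all genes tested moved to 0.17 in R50 against parent and to -0.12 in R50_OFF against R50. All genes tested then divided into 6775 higher and 3929 lower in R50 against parent, beside 5206 and 5216 as deposited, and into 3790 higher and 6112 lower in R50_OFF against R50, beside 4965 and 4820. The 47 genes kept a median of -0.42 in R50 against parent under that scaling, with 3 higher and 33 lower, and of 0.44 in R50_OFF against R50, with 38 higher and 2 lower.

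As a description of sequence, promoters of the genes were searched for E2F-type letters, namely TTTCCCGC, TTTGGCGC, TTTCGCGC and TTTGCCGC, on both strands. The search covered RefSeq windows of 300 bases around the gene start on GRCh38.p14. Matches that overlap each other, on the same or opposite strands, were each kept, and none of these words contains another motif searched. Windows were found for 39 of the 47 genes; MCM4, MCM5, GINS4, POLD3, RPA2, RPA3, E2F8 and CCNE2 were not matched. At least 1 match stood in 19 of the 39 windows, or 48.7%. The share was 27.7% of 47 windows of other replication genes, 8.82% of 34 windows of mitosis genes, 5.33% of 11231 windows of genes tested and 3.33% of all 27305 windows. The cell cycle homology letters TTTGAA, typical of genes of G2 and mitosis, stood in 1 of the 39 windows, beside 24 of the 34 of mitosis genes, 10.1% of those of genes tested and 15.4% of all windows. The letters CCAAT stood in 53.8% of the 39 windows, 37.3% of those of genes tested and 35.7% of all. The GC box GGGCGG stood in 69.2% of the 39, 68.3% of those of genes tested and 44.6% of all. The windows of 5 genes are shown, with the E2F-type letters in capitals and the rest in lower case, each read 5′ to 3′ on its gene's strand. MCM6 (chr2:135876394-135876693, minus strand) had the largest fall in R50, E2F1 (chr20:33686336-33686635, minus strand) had the largest difference between R50_OFF and R50, and MCM2 (chr3:127598161-127598460, plus strand) was lower in R50 and higher in R50_OFF. TYMS (chr18:657403-657702, plus strand) holds the letters and did not pass in R50 against parent, and RRM2 (chr2:10122489-10122788, plus strand) holds none and had the largest fall after MCM6.
MCM6: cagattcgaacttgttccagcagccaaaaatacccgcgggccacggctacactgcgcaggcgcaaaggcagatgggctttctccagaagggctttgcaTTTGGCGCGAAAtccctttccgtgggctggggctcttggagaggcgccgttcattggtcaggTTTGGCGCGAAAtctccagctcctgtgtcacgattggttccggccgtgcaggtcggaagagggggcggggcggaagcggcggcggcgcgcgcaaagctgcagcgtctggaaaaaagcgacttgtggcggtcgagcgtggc
E2F1: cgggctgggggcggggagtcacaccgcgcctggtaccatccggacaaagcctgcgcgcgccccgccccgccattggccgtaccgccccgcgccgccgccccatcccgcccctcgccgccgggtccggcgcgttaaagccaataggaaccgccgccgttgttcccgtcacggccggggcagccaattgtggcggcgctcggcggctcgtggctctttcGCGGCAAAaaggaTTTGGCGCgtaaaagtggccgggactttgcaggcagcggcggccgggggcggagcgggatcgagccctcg
MCM2: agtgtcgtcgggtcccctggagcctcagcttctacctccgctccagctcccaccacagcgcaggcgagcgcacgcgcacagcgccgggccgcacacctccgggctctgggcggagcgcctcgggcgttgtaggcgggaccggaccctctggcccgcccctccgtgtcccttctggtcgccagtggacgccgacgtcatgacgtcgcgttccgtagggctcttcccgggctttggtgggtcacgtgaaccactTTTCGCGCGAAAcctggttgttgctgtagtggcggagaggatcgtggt
TYMS: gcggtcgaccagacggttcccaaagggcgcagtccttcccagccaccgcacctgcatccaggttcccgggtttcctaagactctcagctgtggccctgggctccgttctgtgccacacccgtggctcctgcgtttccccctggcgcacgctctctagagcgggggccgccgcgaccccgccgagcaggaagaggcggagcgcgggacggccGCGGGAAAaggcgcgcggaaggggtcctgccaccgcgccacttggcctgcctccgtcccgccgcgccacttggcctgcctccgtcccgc
RRM2: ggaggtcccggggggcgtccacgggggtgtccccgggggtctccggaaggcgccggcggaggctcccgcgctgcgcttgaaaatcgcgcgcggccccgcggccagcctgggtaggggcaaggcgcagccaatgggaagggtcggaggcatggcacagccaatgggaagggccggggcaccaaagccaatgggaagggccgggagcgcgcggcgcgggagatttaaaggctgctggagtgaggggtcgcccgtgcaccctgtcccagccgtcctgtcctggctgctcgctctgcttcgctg
Of the 19 genes with the letters, 16 fell in R50 against parent, with a median log2 change of -0.58, and of the 20 genes without them 15 fell, with a median of -0.52. In R50_OFF against R50 the medians were 0.75 with the letters and 0.52 without. A match is a run of letters and not a measured binding site.

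**Figure D2:**
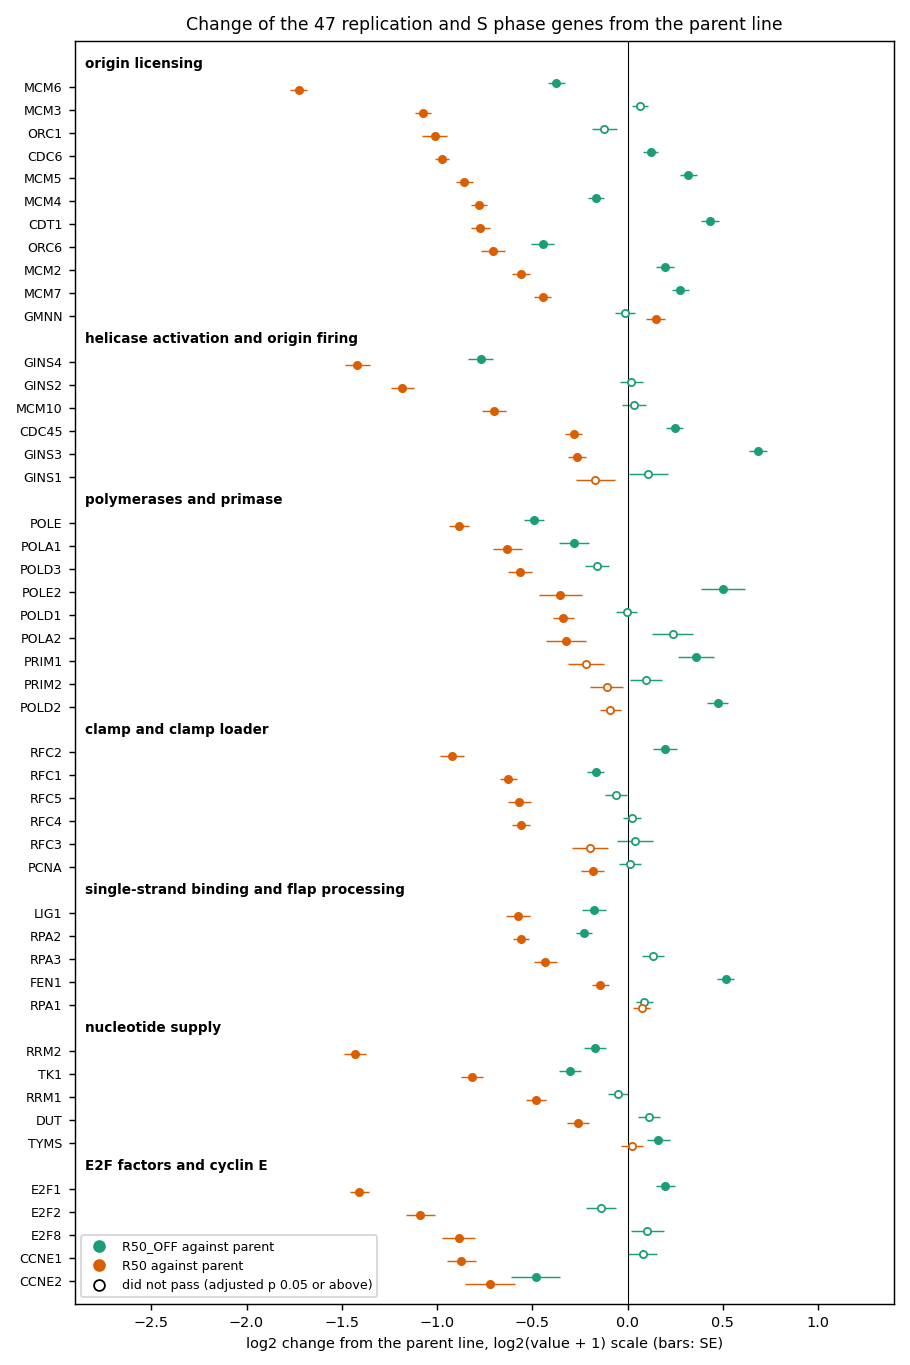
Log2 change from the parent line, on the log2(value + 1) scale with SE bars, of each of the 47 genes in R50_OFF (green) and R50 (orange), grouped by role. Filled points passed at an adjusted p under 0.05. The R50 points lie left of 0 in 44 genes, while the R50_OFF points lie on both sides.

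Origin licensing genes had fallen in R50 in 10 of 11 cases, with a median log2 change of -0.78. MCM6 (chr2:135839626-135876443, minus strand), a subunit of the helicase ring, had a signal of 10926, 10335 and 10402 in R50_OFF, 4151, 4338 and 3919 in R50, and 13673, 13689 and 13674 in parent. The 3 groups did not overlap, and its log2 change was -0.37 (SE 0.05, adjusted p = 5.41e-05) in R50_OFF against parent, -1.73 (SE 0.05, adjusted p = 2.56e-10) in R50 against parent and 1.35 (SE 0.05, adjusted p = 3.78e-09) in R50_OFF against R50. Its promoter, printed above, holds 4 matches to the E2F-type letters in overlapping pairs. MCM5 (chr22:35400134-35425431, plus strand), another ring subunit and the highest of the ring by signal in all 3 groups, had a signal of 21489.7, 19836 and 21057 in R50_OFF, 9331, 8813 and 9442 in R50, and 16379.6, 16685 and 16916 in parent. Here R50_OFF was the highest group and R50 the lowest, again without overlap, with log2 changes of 0.32 in R50_OFF against parent, -0.86 in R50 against parent and 1.18 in R50_OFF against R50.

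The remaining ring genes also fell in R50, but they parted in R50_OFF. MCM2 averaged 9388 ± 479 in R50_OFF, 5562 ± 197 in R50 and 8192 ± 54.7 in parent. MCM7 averaged 10017 ± 410.3 in R50_OFF, 6069 ± 205 in R50 and 8261 ± 22.9 in parent. Both were above parent in R50_OFF, without overlap. MCM4 averaged 11350.3 ± 208 in R50_OFF, 7429.9 ± 332 in R50 and 12741 ± 131 in parent, below parent in both lines. MCM3, the lowest ring gene by signal in every group, averaged 4166 ± 115 in R50_OFF, 1891 ± 36.9 in R50 and 3980.0 ± 37.5 in parent, and its R50_OFF level did not pass against parent at a log2 change of 0.07 (SE 0.04, adjusted p = 0.199). Summed over the 6 ring genes, the signal was 66269 ± 2166 in R50_OFF, 34282 ± 396 in R50 and 63512 ± 332 in parent. By mean signal MCM6 ranked directly after MCM5 in parent, after MCM5 and MCM4 in R50_OFF, and above only MCM3 in R50. The ratio of MCM6 to MCM5 was 0.508 ± 0.0135 in R50_OFF, 0.451 ± 0.0390 in R50 and 0.821 ± 0.0132 in parent, and both resistant lines lay below parent without overlap (exact two-sided permutation p = 0.1 for each pair, the smallest that 3 against 3 allows). The summed ring signal ran from 64057 to 68387 in R50_OFF libraries and from 63293 to 63895 in parent libraries, so these groups lay close but apart.

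**Figure D3:**
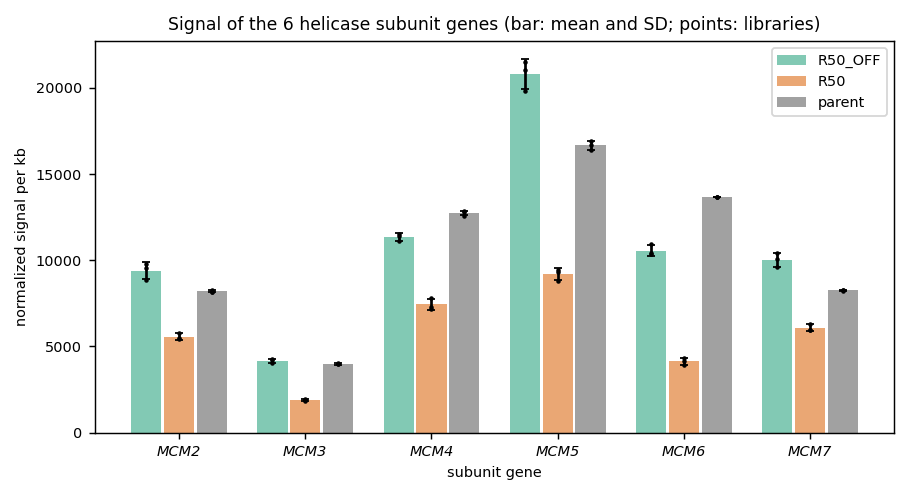
Normalized signal per kilobase of the 6 helicase ring genes in R50_OFF, R50 and parent, as bars for the mean with SD and points for the 3 libraries. R50 is the lowest group for each gene, and R50_OFF is above parent for MCM2, MCM5 and MCM7 and below it for MCM4 and MCM6.

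The genes that load the ring behaved likewise in R50. CDT1 (chr16:88803789-88809258, plus strand), a loading factor, had a signal of 3054, 3034 and 3257 in R50_OFF, 1364, 1286 and 1403 in R50, and 2263, 2303 and 2357 in parent. Its groups did not overlap, with R50_OFF highest and R50 lowest, and its log2 change was 0.43 (SE 0.05, adjusted p = 3.39e-05) in R50_OFF and -0.77 (SE 0.05, adjusted p = 1.98e-07) in R50 against parent. CDC6 (chr17:40287879-40304657, plus strand), its partner in loading, had a signal of 7699, 7500.0 and 7705 in R50_OFF, 3594, 3558 and 3564 in R50, and 7166, 6806 and 7097 in parent. R50 lay at about the same low level in all 3 libraries, and the log2 change was -0.97 in R50 against parent and 1.10 in R50_OFF against R50. The small excess of R50_OFF over parent, a log2 change of 0.12 (SE 0.04, adjusted p = 0.0213), was lost without R50_OFF replicate 1, R50_OFF replicate 3 or parent replicate 2, where the adjusted p was 0.0586 to 0.104, in a range of 0.00647 to 0.104 over all alternatives.

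ORC1, the largest subunit of the origin recognition complex, averaged 694 ± 32.0 in R50_OFF, 374 ± 25.7 in R50 and 755 ± 12.9 in parent. ORC6 (chr16:46689643-46698394, plus strand), its smallest, had a signal of 813, 831 and 852 in R50_OFF, 689, 748 and 649 in R50, and 1135, 1091 and 1177 in parent. Both fell in R50, with log2 changes of -1.01 and -0.71 against parent, and ORC6 was also below parent in R50_OFF at a log2 change of -0.45 (SE 0.06, adjusted p = 0.000134). The difference of ORC6 between R50_OFF and R50, a log2 change of 0.26 (SE 0.06, adjusted p = 0.00398), was lost under scaling to a fixed total, with an adjusted p of 0.0889 in a range of 0.000688 to 0.0889 over the alternatives. GMNN (chr6:24774931-24786099, plus strand) encodes geminin, which binds CDT1 and blocks licensing after S phase has begun. Its signal was 1220.2, 1267 and 1266 in R50_OFF, 1422, 1462 and 1319.6 in R50, and 1286, 1245 and 1261 in parent. R50 was the high group, R50_OFF and parent overlapped, and the log2 change was 0.15 (SE 0.05, adjusted p = 0.0258) in R50 against parent and -0.16 (SE 0.05, adjusted p = 0.018) in R50_OFF against R50. The call in R50 against parent was lost without R50 replicate 1, R50 replicate 2, parent replicate 2 or parent replicate 3 and with voom on traced reads, where the adjusted p was 0.0519 to 0.0836 in a range of 0.00067 to 0.0836, and the other call without R50_OFF replicate 1 or R50 replicate 1, where it was 0.0556 to 0.0613 in a range of 0.00117 to 0.0613. The ratio of CDT1 to GMNN was 2.49 ± 0.0900 in R50_OFF, 0.967 ± 0.0923 in R50 and 1.83 ± 0.0586 in parent, with no overlap between any groups (exact two-sided permutation p = 0.1 for each pair, the smallest possible).

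**Figure D4:**
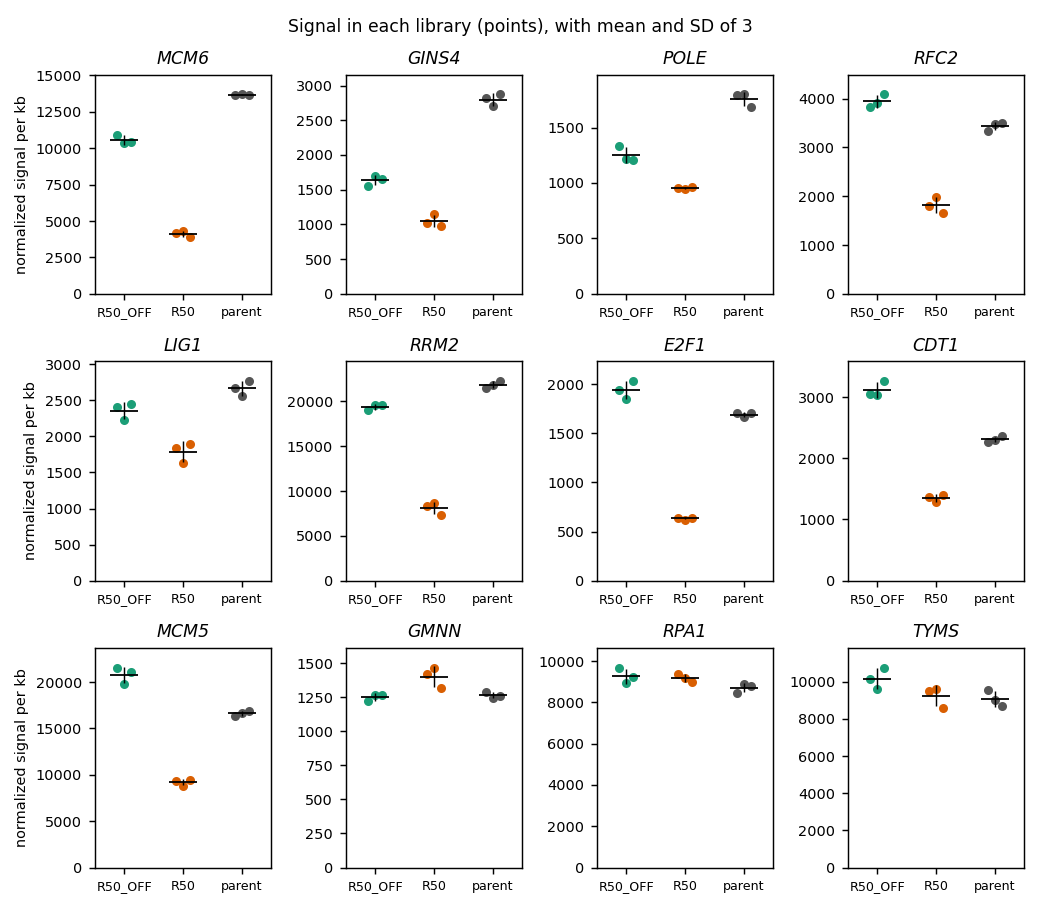
Normalized signal per kilobase of 12 of the genes in each library (points) of R50_OFF, R50 and parent, with the mean and SD of 3, on axes that start at 0. R50 is low in MCM6, RRM2, E2F1, CDT1 and MCM5, whereas the libraries of GMNN all lie between 1220.2 and 1462 and those of RPA1 between 8460.1 and 9655.

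Of the 6 genes of helicase activation and origin firing, 5 fell in R50, and all 6 were higher in R50_OFF than in R50. GINS4 (chr8:41529218-41545030, plus strand), a subunit of the GINS complex, had a signal of 1558, 1703 and 1654 in R50_OFF, 1025, 1145 and 975 in R50, and 2821, 2699 and 2871 in parent. The groups lay apart, with parent highest, and the log2 change was -0.77 (SE 0.06, adjusted p = 3.43e-06) in R50_OFF and -1.42 (SE 0.06, adjusted p = 1.35e-08) in R50 against parent, the largest departure of R50_OFF from parent among the 47 genes. GINS2 (chr16:85676198-85690073, minus strand), from the same complex, had a signal of 3580.3, 3366 and 3607 in R50_OFF, 1527, 1562 and 1498 in R50, and 3175, 3525 and 3735 in parent. R50_OFF and parent overlapped while R50 lay below both, with a log2 change of -1.18 (SE 0.06, adjusted p = 3.33e-08) against parent. GINS3 averaged 2415 ± 71.9 in R50_OFF, 1249 ± 10.7 in R50 and 1501 ± 61.2 in parent, with log2 changes against parent of 0.69 (SE 0.05, adjusted p = 8.32e-07) in R50_OFF and -0.26 in R50, a fall lost under scaling to a fixed total at an adjusted p of 0.0643 in a range of 0.000498 to 0.0643. GINS1 (chr20:25391008-25452700, plus strand) had a signal of 1001, 1232 and 1134 in R50_OFF, 889.6, 1063 and 828 in R50, and 955, 1096 and 1067 in parent. All its groups overlapped, and it did not pass in R50 against parent at a log2 change of -0.17 (SE 0.10, adjusted p = 0.169). It passed in R50_OFF against R50 at a log2 change of 0.28 (SE 0.10, adjusted p = 0.0363), a call lost in 8 alternatives, among them those without R50_OFF replicate 2, R50_OFF replicate 3, R50 replicate 1 or R50 replicate 3, at an adjusted p of 0.0516 to 0.23 in a range of 0.00452 to 0.23.

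The proportions among the 4 GINS genes are given as a description. The ratio of the highest, GINS2, to the lowest, GINS1, was 3.16 ± 0.422 in R50_OFF, 1.67 ± 0.176 in R50 and 3.35 ± 0.144 in parent. GINS4 ranked above GINS3 in parent and below it in both resistant lines. CDC45, which completes the active helicase, averaged 2158 ± 76.2 in R50_OFF, 1496 ± 27.4 in R50 and 1819 ± 25.6 in parent, with log2 changes of 0.25 in R50_OFF and -0.28 in R50 against parent. MCM10, a firing factor, averaged 2556 ± 62.3 in R50_OFF, 1538 ± 146 in R50 and 2493 ± 28.3 in parent, and only its R50 level passed against parent, with a log2 change of -0.70 (SE 0.06, adjusted p = 2.88e-06).

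Polymerase and primase genes fell in R50 in 6 of 9 cases, with a median log2 change of -0.34. POLE (chr12:132623753-132687376, minus strand), the catalytic subunit of leading-strand polymerase epsilon, had a signal of 1337, 1214 and 1209 in R50_OFF, 954, 947 and 959.9 in R50, and 1798, 1798 and 1688 in parent. The groups lay apart with parent highest, with a log2 change of -0.49 (SE 0.05, adjusted p = 2.38e-05) in R50_OFF and -0.88 (SE 0.05, adjusted p = 1.3e-07) in R50 against parent. POLE2 (chr14:49643555-49688422, minus strand), an accessory subunit of the same enzyme, had a signal of 1054, 1002 and 933 in R50_OFF, 590.1, 623 and 453 in R50, and 648, 689 and 778 in parent. R50_OFF was above both other groups, by a log2 change of 0.50 (SE 0.11, adjusted p = 0.00367) against parent, and the ratio of POLE to POLE2 was 1.26 ± 0.0424 in R50_OFF, 1.75 ± 0.321 in R50 and 2.52 ± 0.313 in parent. POLD2 (chr7:44114631-44124358, minus strand), an accessory subunit of lagging-strand polymerase delta, had a signal of 14277, 13294 and 13967 in R50_OFF, 9800.4, 8680.5 and 9664 in R50, and 9718, 9863 and 10363 in parent. R50 and parent overlapped, with a log2 change of -0.09 (SE 0.05, adjusted p = 0.169), and R50_OFF lay above parent at a log2 change of 0.47 (SE 0.05, adjusted p = 3.62e-05).

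POLD1, the catalytic subunit of polymerase delta, averaged 2185 ± 50.1 in R50_OFF, 1738 ± 111 in R50 and 2192 ± 76.3 in parent. POLD3, an accessory subunit of that enzyme, averaged 1259 ± 101 in R50_OFF, 949 ± 39.7 in R50 and 1403 ± 32.0 in parent. Both fell in R50, with log2 changes of -0.34 and -0.56 against parent. In polymerase alpha, which starts each new strand, the catalytic POLA1 averaged 394 ± 21.6 in R50_OFF, 309 ± 26.3 in R50 and 479 ± 8.30 in parent. It was lower than parent in both lines, with log2 changes of -0.28 in R50_OFF and -0.63 in R50. Its partner POLA2 averaged 352 ± 31.8 in R50_OFF, 239 ± 28.3 in R50 and 298 ± 24.3 in parent, with a fall in R50 by a log2 change of -0.32 (SE 0.11, adjusted p = 0.0206). That call was lost without R50 replicate 2, R50 replicate 3, parent replicate 1 or parent replicate 2 and under scaling to a fixed total, where the adjusted p was 0.0569 to 0.164 in a range of 0.00719 to 0.164. The fall of POLE2 in R50, a log2 change of -0.35 (SE 0.11, adjusted p = 0.0194), was lost without R50 replicate 3 or parent replicate 3 and under the same scaling, at an adjusted p of 0.0556 to 0.145 in a range of 0.00638 to 0.145.

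The primase genes did not pass in R50 against parent. PRIM1, the small catalytic subunit, averaged 1067 ± 70.2 in R50_OFF, 717 ± 108 in R50 and 830.0 ± 9.66 in parent. PRIM2, the large subunit, averaged 1143 ± 63.1 in R50_OFF, 993 ± 120.0 in R50 and 1067 ± 47.3 in parent. PRIM1 rose in R50_OFF against parent at a log2 change of 0.36 (SE 0.09, adjusted p = 0.00824). Without R50 replicate 2, PRIM1, PRIM2, GINS1 and RFC3 did pass as lower in R50, with adjusted p values of 0.00107, 0.0409, 0.022 and 0.000919 by limma. PRIM1 also passed there with the replicate block and with voom, with an adjusted p of 0.00107 to 0.0454 over the 3 settings. In R50_OFF against R50, where neither passed as deposited, PRIM2 passed as higher in 6 alternatives, at an adjusted p of 0.00661 to 0.04999, and RFC3 in 5, at 0.000535 to 0.0486. Both sets include a pseudocount of 8, a minimum of 50, the replicate block, voom and the fit without R50 replicate 2, and PRIM2 also passed without R50_OFF replicate 1.

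Among the clamp and clamp loader genes, 5 of 6 fell in R50 with a median log2 change of -0.56. RFC2 (chr7:74231499-74254458, minus strand), a small subunit of the loader, had a signal of 3831, 3911 and 4084 in R50_OFF, 1809, 1989 and 1658 in R50, and 3341, 3474 and 3495 in parent. R50 lay well below the other groups, with a log2 change of -0.92 (SE 0.06, adjusted p = 3.25e-07) against parent. The excess of R50_OFF over parent, a log2 change of 0.20 (SE 0.06, adjusted p = 0.0218), was lost without R50_OFF replicate 3 or parent replicate 1, at an adjusted p of 0.0753 to 0.0791 in a range of 0.0027 to 0.0791. PCNA (chr20:5114953-5126626, minus strand), the sliding clamp that holds polymerases on DNA, had a signal of 4196, 4085 and 3725 in R50_OFF, 3660.2, 3592 and 3242 in R50, and 4098, 3896 and 3898 in parent. R50 was below the others without overlap, with a log2 change against parent of -0.18 (SE 0.06, adjusted p = 0.0215), and R50_OFF overlapped parent. That call was lost without R50 replicate 3 or parent replicate 1, under quantile normalization and under scaling to a fixed total, at an adjusted p of 0.0782 to 0.683 in a range of 0.00464 to 0.683.

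The difference of PCNA between R50_OFF and R50, a log2 change of 0.19 (SE 0.06, adjusted p = 0.017), was lost without R50_OFF replicate 1, R50_OFF replicate 2 or R50 replicate 3 and under the same scalings, at an adjusted p of 0.0555 to 0.315 in a range of 0.00364 to 0.315. The ratio of PCNA to MCM6 was 0.379 ± 0.0191 in R50_OFF, 0.846 ± 0.0313 in R50 and 0.290 ± 0.00857 in parent, with no overlap (exact two-sided permutation p = 0.1 for each pair, the smallest possible). RFC1, the large loader subunit, averaged 5526 ± 99.8 in R50_OFF, 4024 ± 183 in R50 and 6209 ± 93.5 in parent. RFC4, a small subunit, averaged 2916 ± 152 in R50_OFF, 1946 ± 14.0 in R50 and 2867 ± 52.4 in parent. RFC5, another, averaged 3501 ± 143 in R50_OFF, 2467 ± 195 in R50 and 3653 ± 90.8 in parent. All of them fell in R50, with log2 changes of -0.63, -0.56 and -0.57 against parent. RFC3 averaged 1505 ± 67.6 in R50_OFF, 1286 ± 211 in R50 and 1463 ± 25.0 in parent and did not pass in any of the 3 comparisons.

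Of the 5 genes of single-strand binding and flap processing, 4 fell in R50 as deposited and 3 under quantile normalization or scaling to a fixed total, where FEN1 turned to a log2 change of 0.0096 and 0.0097. LIG1 (chr19:48115445-48170603, minus strand), the ligase that seals Okazaki fragments, had a signal of 2409, 2219 and 2443 in R50_OFF, 1845, 1629 and 1894 in R50, and 2670.4, 2557 and 2761 in parent. Parent was highest and R50 lowest without overlap, with a log2 change of -0.58 (SE 0.06, adjusted p = 1.74e-05). The smaller deficit of R50_OFF, a log2 change of -0.18 (SE 0.06, adjusted p = 0.0414), was lost in 8 alternatives, among them those without R50_OFF replicate 1, R50_OFF replicate 2, R50 replicate 1, parent replicate 1 or parent replicate 3, at an adjusted p of 0.0511 to 0.147 in a range of 0.00682 to 0.147. FEN1 (chr11:61792911-61797238, plus strand), the nuclease that trims the flaps of those fragments, had a signal of 12592, 12078 and 12276 in R50_OFF, 8153, 7649.5 and 7637 in R50, and 8609, 8302 and 8962 in parent. R50_OFF stood above both other groups, with a log2 change of 0.51 (SE 0.05, adjusted p = 5.06e-06) against parent. The fall in R50, a log2 change of -0.14 (SE 0.05, adjusted p = 0.0173), was lost without R50 replicate 3 or parent replicate 3 and under the scalings named, at an adjusted p of 0.051 to 0.852 in a range of 0.011 to 0.852.

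RPA1 (chr17:1829702-1900082, plus strand), the large subunit of the protein that coats single-stranded DNA, had a signal of 9655, 8926 and 9226 in R50_OFF, 9377, 9179 and 8977 in R50, and 8460.1, 8892 and 8805 in parent. Its R50_OFF and R50 libraries overlapped, and both groups lay above the parent libraries by a margin that did not pass, with a log2 change of 0.09 (SE 0.04, adjusted p = 0.116) in R50_OFF and 0.07 (SE 0.04, adjusted p = 0.16) in R50. Under quantile normalization and scaling to a fixed total it passed as higher in R50 than in parent, at an adjusted p of 0.000136 to 0.000338, and as lower in R50_OFF than in R50, with log2 changes of -0.18 and -0.11 beside 0.01 as deposited. Scaled to a fixed total it also passed as higher in R50_OFF than in parent, at an adjusted p of 0.0217. RPA2 averaged 3311 ± 76.8 in R50_OFF, 2636 ± 76.7 in R50 and 3885 ± 87.3 in parent. RPA3 averaged 3603 ± 127 in R50_OFF, 2440.1 ± 173 in R50 and 3286 ± 115 in parent. Both of these smaller subunits fell in R50, with log2 changes of -0.56 and -0.43. The ratio of the highest to the lowest RPA gene was 2.80 ± 0.104 in R50_OFF, 3.77 ± 0.201 in R50 and 2.65 ± 0.0531 in parent. RPA1 was the highest throughout, but the lowest was RPA2 in R50_OFF and RPA3 in R50 and parent, so these ratios are of different gene pairs.

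Genes of nucleotide supply fell in R50 in 4 of 5 cases. RRM2 (chr2:10120698-10211725, plus strand), the S phase subunit of ribonucleotide reductase, had a signal of 19002, 19618 and 19581 in R50_OFF, 8328, 8700.4 and 7323 in R50, and 21489, 21815 and 22241 in parent. R50 lay below the others at a log2 change of -1.43 (SE 0.06, adjusted p = 6.18e-09), and R50_OFF was below parent at a log2 change of -0.17 (SE 0.06, adjusted p = 0.0308). The call for R50_OFF was lost without any 1 of the R50_OFF or parent libraries and in 2 other alternatives, at an adjusted p of 0.0554 to 0.0918 in a range of 0.0028 to 0.0918. RRM1, the large subunit of the enzyme, averaged 14328 ± 609 in R50_OFF, 10649 ± 637 in R50 and 14848 ± 298 in parent, with a log2 change of -0.48 in R50. RRM2 exceeded RRM1 in R50_OFF and parent, while RRM1 exceeded RRM2 in R50, where the ratio of the higher to the lower gene was 1.31 ± 0.0398. RRM2B, the alternative small subunit known as a p53 target, averaged 4709 ± 432 in R50_OFF, 8627 ± 1477 in R50 and 4225 ± 120.1 in parent and rose in R50 at a log2 change of 1.02 (SE 0.10, adjusted p = 7.89e-06). The ratio of RRM2 to RRM2B was 4.14 ± 0.313 in R50_OFF, 0.951 ± 0.110 in R50 and 5.17 ± 0.198 in parent (exact two-sided permutation p = 0.1 for each pair, the smallest possible).

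TK1 (chr17:78174091-78187233, minus strand), which salvages thymidine, had a signal of 12121, 10929.5 and 11526 in R50_OFF, 8637, 7566 and 7990.0 in R50, and 13857, 14698 and 14058 in parent. The groups lay apart with parent highest, with a log2 change of -0.30 (SE 0.06, adjusted p = 0.00116) in R50_OFF and -0.82 (SE 0.06, adjusted p = 4.07e-07) in R50. TYMS (chr18:657653-673578, plus strand), which makes thymidylate and is the target of fluorouracil, had a signal of 10165, 9604 and 10728 in R50_OFF, 9498, 9621 and 8589 in R50, and 9531, 9042 and 8684 in parent. R50 and parent overlapped, with a log2 change of 0.02 (SE 0.06, adjusted p = 0.757), which became a rise under quantile normalization and scaling to a fixed total, at an adjusted p of 0.0105 to 0.0253. R50_OFF lay above parent at a log2 change of 0.16 (SE 0.06, adjusted p = 0.0421), a call lost without R50_OFF replicate 1, R50_OFF replicate 3, R50 replicate 1, parent replicate 2 or parent replicate 3 and with no filter, at an adjusted p of 0.052 to 0.155 in a range of 0.0204 to 0.155. DUT, which removes dUTP, averaged 8939 ± 297 in R50_OFF, 6917 ± 585 in R50 and 8261 ± 68.0 in parent, and its fall in R50, a log2 change of -0.26 (SE 0.06, adjusted p = 0.00231), was lost under both of these scalings at an adjusted p of 0.0748 to 0.155 in a range of 5.13e-05 to 0.155.

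All 5 genes of E2F factors and cyclin E fell in R50, with a median log2 change of -0.89. E2F1 (chr20:33675477-33686385, minus strand), an activator of S phase genes, had a signal of 1943, 1847 and 2029.9 in R50_OFF, 643, 623 and 643 in R50, and 1704, 1662 and 1705 in parent. The 3 groups did not overlap, and the log2 change was 0.20 (SE 0.05, adjusted p = 0.00599) in R50_OFF against parent, -1.41 (SE 0.05, adjusted p = 1.83e-09) in R50 against parent and 1.61 (SE 0.05, adjusted p = 2.01e-09) in R50_OFF against R50, the largest difference between the resistant lines among the 47 genes. Its own promoter, printed above, holds 2 separate matches to the E2F-type letters. E2F2, another activator, averaged 328 ± 4.69 in R50_OFF, 170.3 ± 14.8 in R50 and 362 ± 6.26 in parent. E2F8, a repressor of the family, averaged 315 ± 13.2 in R50_OFF, 159 ± 15.2 in R50 and 293 ± 11.5 in parent. Both fell in R50, with log2 changes of -1.09 and -0.89, and neither passed in R50_OFF against parent. The ratio of E2F1 to E2F4, which encodes a repressor that works with pocket proteins, was 0.299 ± 0.00846 in R50_OFF, 0.139 ± 0.00891 in R50 and 0.279 ± 0.00286 in parent.

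The cyclin E genes differed in R50_OFF. CCNE1 averaged 339 ± 20.4 in R50_OFF, 174 ± 5.47 in R50 and 321 ± 15.3 in parent. Its log2 change against parent was 0.08 in R50_OFF, which did not pass, and -0.87 (SE 0.08, adjusted p = 2.23e-06) in R50. CCNE2 (chr8:94879770-94896678, minus strand) had a signal of 1113, 1417 and 1408 in R50_OFF, 995, 1374 and 985 in R50, and 1734, 1851 and 1886 in parent. Parent was above both resistant lines, which overlapped each other, with a log2 change of -0.48 (SE 0.13, adjusted p = 0.00913) in R50_OFF and -0.72 (SE 0.13, adjusted p = 0.000542) in R50. Without R50_OFF replicate 1 or R50 replicate 2, CCNE2 passed as higher in R50_OFF than in R50, at an adjusted p of 0.00495 to 0.0401 in a range of 0.00495 to 0.47.

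**Figure D5:**
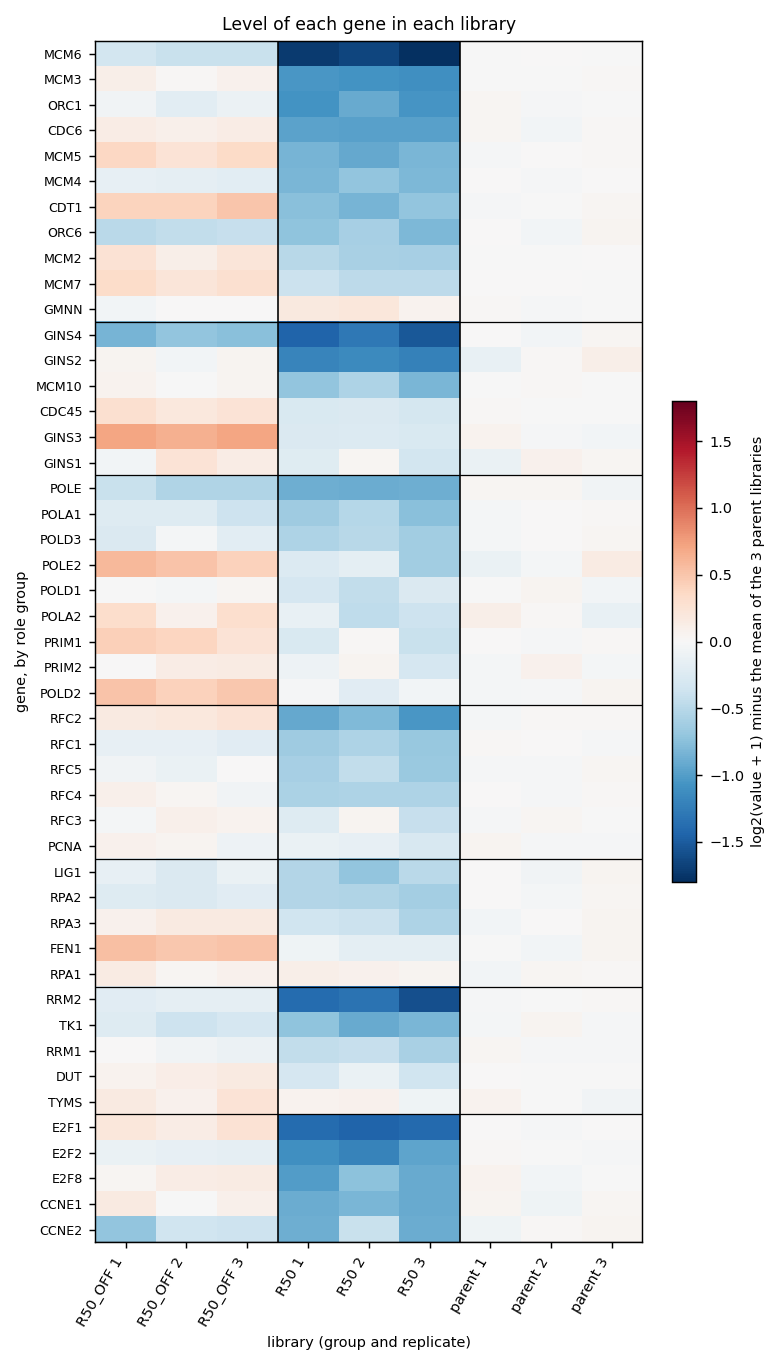
Log2(value + 1) of each of the 47 genes in each library minus the mean of the 3 parent libraries, ordered by role and then by the change in R50, with R50_OFF, R50 and parent libraries from left to right. The R50 columns are blue (lower) in nearly every row, and the R50_OFF columns hold both blue and red rows.

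Set against parent, the genes fell into a few joint patterns. How many of all genes tested share each pattern was not counted. In R50_OFF against parent, 29.8% of the 47 were higher and 25.5% lower, close to the 26.3% and 25.7% of all genes tested. In 11 genes R50 was lower and R50_OFF higher than parent: CDC6, CDT1, MCM2, MCM5, MCM7, CDC45, GINS3, POLE2, RFC2, FEN1 and E2F1. In 12 both lines were lower: ORC6, MCM4, MCM6, GINS4, POLA1, POLE, RFC1, RPA2, LIG1, RRM2, TK1 and CCNE2. In 16 genes R50 was lower than parent and R50_OFF did not pass against parent, and all 16 were higher in R50_OFF than in R50. GMNN was higher in R50 than in parent and did not pass in R50_OFF. PRIM1, POLD2 and TYMS were higher in R50_OFF and did not pass in R50, while GINS1, PRIM2, RFC3 and RPA1 passed in neither. Some calls in R50_OFF against parent appeared when a library was left out: POLA2 as higher without R50_OFF replicate 2 (adjusted p = 0.0437), POLD3 as lower without R50_OFF replicate 2 (0.0112) or R50 replicate 2 (0.0397), DUT as higher without R50 replicate 2 (0.0206) and RPA3 as higher without R50 replicate 3 (0.0305). Counted over all alternatives, these calls appeared in 3 for POLA2, 4 for POLD3, 2 for DUT and 4 for RPA3. TYMS passed as higher in R50_OFF than in R50 without R50_OFF replicate 2 (0.0390) or R50 replicate 2 (0.0390). Complexes were divided between these patterns, as with MCM5 and MCM6, GINS3 and GINS4, or POLE2 and POLE, which is given as a description.

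The genes lie on 20 chromosomes. In R50 against parent, 44 of them lay below the median change of the other tested genes of their chromosome and 3 above it, and in R50_OFF against R50 all 47 lay above it. On chromosome 2, which carries MCM6 and RRM2, the other genes had a median of -0.34 in R50 against parent, the lowest of the 20 chromosomes, and on chromosome 6, which carries MCM3, GMNN and PRIM2, it was 0.32. For 8 of the genes the table also lists a named pseudogene copy, which reached at most 0.0883% of its gene's signal. A gene on the opposite strand with a signal of at least 10 overlaps MCM7, GINS2, GINS3, POLA1, PRIM1, RFC4, RFC5, RPA1, RPA3, TYMS, DUT and CCNE2, and because no source used here says whether reads were counted by strand, the values of these 12 are less certain.

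A further 58 replication genes, such as other origin factors, checkpoint and chromatin assembly genes and E2F partners, were followed beside the 47. In R50 against parent 37 fell and 9 rose, or 63.8% and 15.5% of the list beside 31.7% and 31.6% of all genes tested, with a median log2 change of -0.37. In R50_OFF against parent 18 were lower and 8 higher, or 31.0% and 13.8% beside 25.7% and 26.3%, with a median of -0.07. In R50_OFF against R50 27 were higher and 6 lower, or 46.6% and 10.3% beside 30.2% and 29.3%, with a median of 0.17. Under scaling to a fixed total these last counts were 21 and 10, beside 3790 higher and 6112 lower of all 16456 genes tested. CHAF1B, a subunit of the assembly factor that places histones on new DNA, averaged 1110.3 ± 13.7 in R50_OFF, 465 ± 15.3 in R50 and 1132 ± 16.3 in parent. CLSPN, a fork checkpoint mediator, averaged 535 ± 41.1 in R50_OFF, 354 ± 26.3 in R50 and 713 ± 15.5 in parent. Their log2 changes in R50 against parent were -1.28 (SE 0.05, adjusted p = 3.39e-09) and -1.01 (SE 0.08, adjusted p = 6.83e-07).

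The 9 that rose in R50 were TIMELESS, POLD4, ASF1A, RRM2B, TOP2A, E2F3, E2F5, TFDP1 and TFDP2. TFDP1, the dimer partner of E2F factors, averaged 12874 ± 518 in R50_OFF, 7886 ± 359 in R50 and 6608 ± 88.3 in parent, with R50_OFF above parent at a log2 change of 0.96 (SE 0.05, adjusted p = 6.39e-08). TFDP2, its relative, averaged 1931 ± 79.8 in R50_OFF, 3621 ± 159 in R50 and 2178 ± 39.7 in parent, a rise in R50 by a log2 change of 0.73 (SE 0.05, adjusted p = 2.93e-07). TOP2A, the topoisomerase that untangles replicated chromosomes, averaged 23512 ± 1546 in R50_OFF, 36576 ± 3152 in R50 and 30875 ± 433 in parent, with a log2 change of 0.24 in R50. In R50_OFF, TICRR, which helps load CDC45, was below parent at a log2 change of -0.69 (SE 0.10, adjusted p = 0.000225), and TONSL, which acts at damaged forks, was above it at a log2 change of 0.61 (SE 0.08, adjusted p = 6.92e-05). The other genes that rose in R50_OFF were UHRF1, DTYMK, CDC25A, CCNA2, E2F5 and DTL, with log2 changes of 0.33, 0.33, 0.23, 0.40, 0.56 and 0.17.

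Genes of mitosis changed in both directions. Of 39 tested, 18 were higher and 10 lower in R50 than in parent, or 46.2% and 25.6% beside 31.6% and 31.7% of all genes tested, with a median log2 change of 0.04. In R50_OFF against parent the counts were also 18 and 10, here beside 26.3% and 25.7% of all genes tested, with a median of 0.08. Without parent replicate 2, 11 were higher, beside 3812 of all 16456 genes tested. As deposited, 13 were higher and 12 lower in R50_OFF against R50. These shares of 33.3% and 30.8% were near the 30.2% and 29.3% of all genes tested. Under scaling to a fixed total 5 were higher and 21 lower, beside 3790 and 6112 of all 16456 genes tested. Quantile normalization gave 6 higher and 21 lower, beside 4861 and 4856 of all genes tested. The share of lower genes was above that of all genes tested under both of these scalings. KIF20A, a kinesin of cell division, averaged 7529 ± 148 in R50_OFF, 10957 ± 641 in R50 and 6395 ± 183 in parent, a rise in R50 by a log2 change of 0.78 (SE 0.05, adjusted p = 1.73e-07). MYBL2, a transcription factor of late S phase and G2, averaged 3006 ± 191 in R50_OFF, 1590.4 ± 76.5 in R50 and 1290.2 ± 37.0 in parent, a rise in R50_OFF by a log2 change of 1.22 (SE 0.06, adjusted p = 5.62e-08). The genes lower in R50 were PLK1, BUB1, KIF23, CENPE, CENPF, SPC25, ANLN, PTTG1, ESPL1 and MKI67. ESPL1, the separase that parts sister chromatids, averaged 982 ± 13.8 in R50_OFF, 872 ± 77.9 in R50 and 1884 ± 82.9 in parent. CENPE, a kinetochore motor, averaged 2284 ± 267 in R50_OFF, 2259 ± 263 in R50 and 4013 ± 51.5 in parent. MKI67, the proliferation marker Ki-67, averaged 11195 ± 629 in R50_OFF, 11727 ± 832 in R50 and 17462 ± 713 in parent. These 3 genes were lower in both resistant lines than in parent, with log2 changes in R50_OFF of -0.94, -0.82 and -0.64 and in R50 of -1.11, -0.83 and -0.58.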

How the data were processed

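Libraries of poly-A RNA kept strand information and gave single-end reads of 50 bases, per the labels' protocols. Per the submitters' processing notes, bcl2fastq 2.17.1.14 and the build hg38 were used. Which aligner, counter, strand option and annotation were used is not given in the sources used here. The authors deposited a linear signal for 33264 genes in 9 columns that, per the file headers, was normalized between libraries and divided by median transcript length in kilobases. Groups and replicate numbers came from the sample titles. Of the IDs, 33137 (99.62%) were matched to symbols and to GENCODE version 44 coordinates. Within each gene the values were whole multiples of a step, for 100% of genes within 0.01 of a read, which gave the traced reads. They are the smallest whole numbers that fit, and the largest difference between their library factors and median-of-ratios factors was 0%.

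The test was limma 3.58.1 (R 4.3.3), fitted once to all 3 groups on log2(value + 1) with a trended prior, leaving 6 residual degrees of freedom. Genes entered it where 3 or more libraries had a value of 10 or more. Changes are on that scale, which understates those of low genes. P-values are two-sided and adjusted over all genes tested. Means and SDs are of deposited values. The fit was tested on simulated data.

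The members and lists were chosen with earlier results of these data known. Every member could be named. In each role group per-library values are given for those with the largest and smallest changes in R50 and the largest in R50_OFF against either group, and for a few others. From the other lists the 3 largest changes and those against the list's direction are named. UHRF1, DTYMK, CDC25A, CCNA2, E2F5, DTL, MKI67 and TOP2A's values were added after they were seen. Ratios between genes were not among the planned results and restate the changes of the genes they hold. Alternatives were pseudocounts, filters, quantile normalization, fixed totals, voom on traced reads, 2 groups only, a replicate block and each library left out.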

Additional observations from a re-analysis of the deposited data

Results flagged for a closer look

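In 11 genes the effects of the lines against parent differed in direction. Each was lower in R50 than in parent and higher in R50_OFF than in parent. Limma's test of R50_OFF against R50 passed in each as well. That result follows from the calls against parent, which come from the same fit, and adds no support to them. The log2 difference, R50_OFF minus R50, was 1.61 in E2F1, 1.20 in CDT1, 1.18 in MCM5, 1.12 in RFC2, 1.10 in CDC6, 0.95 in GINS3, 0.85 in POLE2, 0.75 in MCM2, 0.72 in MCM7, 0.66 in FEN1 and 0.53 in CDC45. All 3 libraries of each line lay on the stated side of the parent libraries in these genes. The share of all genes tested with this pattern of opposite directions was not counted. In 5 of them a call against parent was lost under some alternative. The rise in R50_OFF was lost for CDC6 in 3 alternatives, at an adjusted p of 0.0586 to 0.104 by limma, and for RFC2 in 2, at 0.0753 to 0.0791. The fall in R50 was lost for GINS3 in 1, at 0.0643, for POLE2 in 3, at 0.0556 to 0.145, and for FEN1 in 4, at 0.051 to 0.852. As deposited, FEN1 was -0.14 in R50 against parent, and it was 0.0096 under quantile normalization and 0.0097 with fixed totals.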

How the results depend on the processing

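The verdict stayed the same under every alternative for 34 of the 47 genes in R50 against parent, 37 in R50_OFF against parent and 38 in R50_OFF against R50. The median change in R50 against parent was -0.47 under quantile normalization and -0.42 with fixed totals, and in R50_OFF against R50 it was 0.48 and 0.44. Genes higher in R50 than in parent numbered 3 under quantile normalization, 3 with fixed totals and 0 with limma's voom, and 0 to 1 when a library was left out. Of all 16456 genes tested, the first 3 of these settings called 5281, 6775 and 5303 as higher. At an unadjusted p under 0.05 voom called 1, GMNN, as did 3 of the 4 counts of 0 without a library, and that without parent replicate 2 called 0. Genes lower in R50_OFF than in R50 numbered 2 under quantile normalization and 2 with fixed totals, and 0 to 1 when a library was left out, where GMNN passed at an unadjusted p under 0.05. Of all genes tested, quantile normalization called 4856 as lower there and fixed totals 6112. FEN1 in R50 against parent was 0.0096 under quantile normalization and 0.0097 with fixed totals, and RPA1 in R50_OFF against R50 was -0.18 and -0.11; the cause was not tested. Between samples with the same replicate number, correlations of their deviations ran from -0.02 to 0.10. These values show no clear pairing but cannot exclude it, because each deviation is taken from a mean of only 3 libraries. With the replicate block 40 of the 47 genes were lower in R50 than in parent, beside 5318 of all 16456 genes tested. In R50_OFF against R50 43 were higher, beside 5070 of all genes tested. In R50_OFF against parent 15 were higher and 13 lower, beside 4454 and 4357 of all genes tested. Fixed totals and voom were chosen after seeing the data. The planned count-model alternatives were not run; voom on the traced reads, known for each gene up to a whole factor, stood in for them. For depth, no gene of the 47 had fewer than 225 traced reads in a library.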
